A study of Mus musculus with 14 samples.

Results

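The miRNA family of miR-15, miR-16, miR-195 and miR-322 was followed through mouse lung development with 7 TaqMan assays, which are quantitative PCR assays for 1 mature miRNA each. The members were miR-15a (assay ‘389’), miR-15b (assay ‘390’), miR-16 (assay ‘391’), miR-195 (assay ‘494’), miR-497 (assay ‘1346’), miR-322 (assay ‘1076’) and miR-503 (assay ‘2456’). They were taken by these numbers from the 516 deposited rows, and all 7 were found and measured in all 14 samples. The rows carry assay numbers only and the run files carry names only, so the name given to each row here rests on the manufacturer's numbering and not on a pairing within the files. All 7 names stood in the layout of card A, 1 of the 2 cards run per sample. The measurements were made on total RNA of pooled whole lungs of outbred ICR mice, labelled female and without treatment. Each of 7 time points had 2 samples. Before birth these were E12, E14, E16 and E18, where E counts days of gestation from the plug, and after birth P2, P10, where P counts days of life, and adult, whose age the labels do not give and the study's text gives as P30. The study set out to find miRNAs whose level changes as the lung forms, from branching airways at E12 to E16, through thinning air sacs at E18 and P2, to alveoli at P10 and in the adult. The sources do not state if both samples of an age were pooled from different animals. The p-values below therefore reflect sample-to-sample variation that may be no more than technical. Whole lung is a mixture, and fewer cells of a type cannot be told apart from less RNA per cell. Marker genes of lung could not be looked up, since the rows are numbered miRNA assays.

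A miRNA guides a silencing complex to messenger RNAs that pair with its seed, the stretch from base 2 to base 8. The miR-15/16 family is known for holding cells back from entering S phase, by repressing cyclins of the D and E types, the cyclin-dependent kinase Cdk6 and the phosphatase Cdc25a, and for repressing the survival protein Bcl2. miR-195 is known in mouse heart for its rise after birth and for its repression of the checkpoint kinase Chek1, and miR-322 and miR-503 are known for promoting cell cycle exit in differentiating mouse myoblasts.

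The mature sequences are shown because they define the family and show where miR-503 departs from it. They are the RefSeq entries on build GRCm38.p6, matched by name for 7 of 7 members, written 5′ to 3′ with the seed in capitals.
miR-15a: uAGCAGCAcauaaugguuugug
miR-15b: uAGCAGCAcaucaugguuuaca
miR-16: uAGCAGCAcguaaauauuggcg
miR-195: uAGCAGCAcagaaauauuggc
miR-497: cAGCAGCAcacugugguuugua
miR-322: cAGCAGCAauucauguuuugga
miR-503: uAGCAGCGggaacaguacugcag

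All members but miR-503 (6 of 7) shared 1 seed, which 10 of the 1679 mature mouse miRNA names in the RefSeq table carry (0.596%). The seed of miR-503 was found in 1 of the 1679 (0.0596%), miR-503 itself, and differed from that of miR-16 by A8G, with positions counted from 1 at the 5′ end. Over the whole sequence, seed included, the closest pair was miR-16 and miR-195, with the same base at 19 of 21 positions and the differences G10A and U11G. miR-15a and miR-15b had the same base at 18 of 22 positions.

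The genes lie in 4 pairs of neighbours. The mature miR-497 (chr11:70234730-70234751) and miR-195 (chr11:70235062-70235082) lie on the plus strand of chromosome 11, with 332 bases between their starts. On the minus strand of the X chromosome, miR-322 (chrX:53054306-53054327) and miR-503 (chrX:53054027-53054049) are 278 bases apart. miR-16 is made from 2 genes, 1 beside miR-15a on the minus strand of chromosome 14 (miR-15a at chr14:61632075-61632096, miR-16 at chr14:61631936-61631957) and 1 beside miR-15b on the plus strand of chromosome 3 (miR-15b at chr3:69009775-69009796, miR-16 at chr3:69009918-69009939). Its assay cannot tell these sources apart.

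The deposited unit is ΔCT, the threshold cycle of a miRNA minus that of the small nuclear RNA U6. The lower the ΔCT, the more of the miRNA was present, and each cycle stands for a 2-fold difference if every PCR cycle doubles the product. Changes are given as log2, with a rise in level positive. Within every sample the ΔCT of the 7 members differed by nearly whole cycles, their distances to the nearest whole cycle agreeing within 0.0665 cycle. Differences between members within a sample were therefore resolved only in steps of nearly 1 cycle. A shift of U6 in a sample moves the ΔCT of all its assays alike. For the 219 assays with a value in every sample, the mean ΔCT ranged from 9.94 in E18 replicate 1 to 11.6 in E12 replicate 1, and 272 to 335 assays were measured per sample. For this reason each result against U6 is set beside the same result against the mean of those 219 assays (global mean), which include the 7 members. That scaling moved the median change of all 350 assays tested between E12 and E18 from 0.99 to -0.38.

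Over the 7 time points, 5 of the 7 members changed by limma's F test at an adjusted p under 0.05, where 56.9% of all assays did. These were miR-195, miR-322, miR-503, miR-16 and miR-497. The same 5 passed against the global mean, where 58.3% of all assays did. The study's criteria ask in addition for a lowest mean ΔCT below 10 and a range above 2.2 cycles, and were met by 4 members (miR-16, miR-195, miR-322 and miR-503) and by 22.9% of all assays. The members fell into different courses, shown in the plot of ΔCT by time point: miR-195 was highest in the adult, and miR-322 and miR-503 were highest at E18. miR-16, miR-15a and miR-15b also had their highest mean level at E18 against U6. For miR-16 the mean ΔCT was 3.08 at E18 and 3.13 in the adult.

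**Figure D1:**
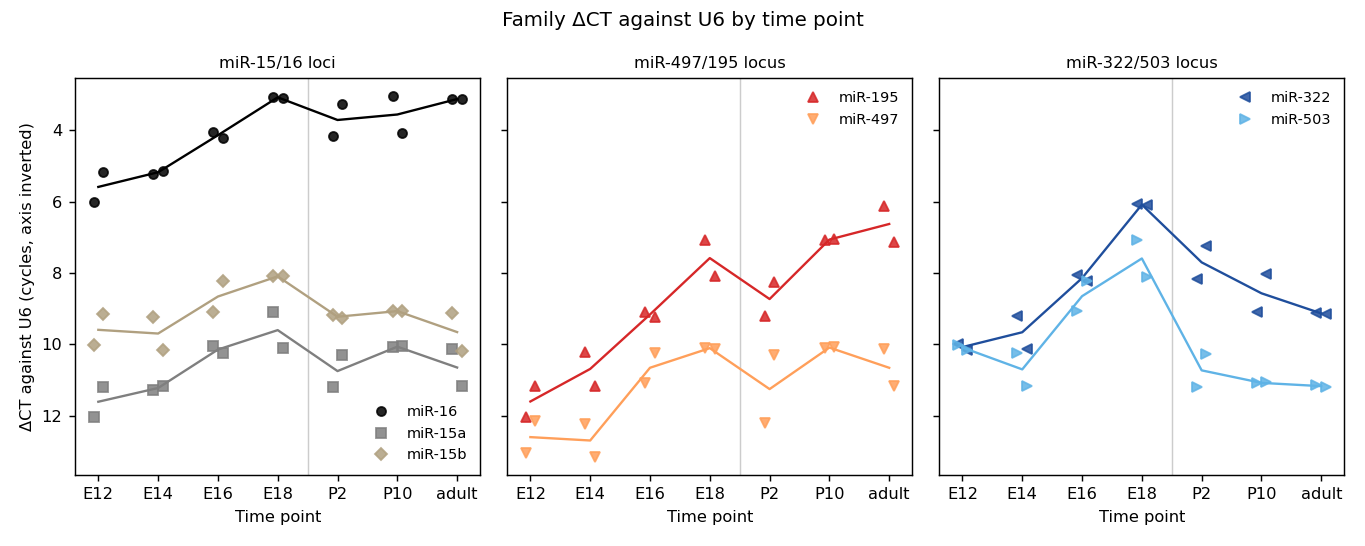
ΔCT against U6 in cycles on an inverted axis, so that a higher level is higher up, for the 7 family assays by time point, each point being 1 sample, the lines joining the means of 2 samples and the grey line marking birth. miR-195 went from a mean of 11.6 at E12 to 6.63 in the adult, while miR-322 and miR-503 had their lowest ΔCT at E18, with means of 6.08 and 7.59.

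miR-195 moved the furthest of the 7. Its ΔCT was 12.0 and 11.2 at E12, 10.2 and 11.1 at E14, with 9.08 and 9.24 at E16, then 7.07 and 8.09 at E18, 9.20 and 8.26 at P2, 7.07 and 7.06 at P10, with 6.11 and 7.14 in the adult. Both E12 samples were the lowest in level, and every P10 and adult sample was at or above the level of every embryonic sample but E18 replicate 1, which stood with P10. The mean ΔCT went from 11.6 ± 0.60 (SD, n = 2) at E12 to 6.63 ± 0.73 in the adult, a range of 4.97 cycles or 31.3-fold (limma F test, adjusted p = 4.91e-04). In rank by ΔCT among the assays of a sample, it went from 139th at its lowest to 22nd at its highest. Adult exceeded E12 by 4.97 on the log2 scale (SE 0.56, adjusted p = 9.00e-05) with no overlap of the samples, and 86 of the 350 assays, 24.6%, were higher in that comparison. E18 already exceeded E12 by 4.01 (SE 0.56, adjusted p = 7.70e-04), or 16.2-fold. With the global mean these changes were 4.54 and 2.64, and both passed. They also passed in all 24 alternative settings tried.

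miR-497, the neighbour of miR-195, followed it less steeply and with more spread. Its ΔCT was 13.0 and 12.2 at E12, 12.2 and 13.1 at E14, with 11.1 and 10.2 at E16, then 10.1 and 10.1 at E18, 12.2 and 10.3 at P2, 10.1 and 10.1 at P10, with 10.1 and 11.2 in the adult. The P2 samples lay nearly 2 cycles apart, 1 with the E12 samples and 1 with those of E18 and P10. The means ranged over 2.60 cycles, or 6.07-fold, from E14 to P10 (adjusted p = 0.0290). That F test was no longer passed without E12 replicate 1 (adjusted p = 0.0657), E14 replicate 2 (0.0744), E18 replicate 1 (0.0590), E18 replicate 2 (0.0543), P10 replicate 1 (0.0588) or P10 replicate 2 (0.0618). Adult exceeded E12 by 1.94 (SE 0.67, adjusted p = 0.0409). The adjusted p of that difference went to 0.191 without adult replicate 1 and 0.184 without E12 replicate 1, and to between 0.0505 and 0.0572 without E12 replicate 2 or any 1 of the E18 or P10 samples. With the methods' ordinary test it was 0.0610, and the adjusted p of the F test 0.0569. Between embryonic and postnatal samples miR-497 differed by 0.85 (SE 0.36, adjusted p = 0.0757) against U6 and by 0.94 (SE 0.27, adjusted p = 0.0169) against the global mean.

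miR-322 rose to E18 and fell again. Its ΔCT was 9.99 and 10.2 at E12, 9.20 and 10.1 at E14, with 8.06 and 8.22 at E16, then 6.08 and 6.09 at E18, 8.16 and 7.24 at P2, 9.10 and 8.04 at P10, with 9.12 and 9.14 in the adult. The E18 samples stood more than 1 cycle above all the others, and the adult samples lay next to E14 replicate 1. The range of means was 3.99 cycles, or 15.9-fold (adjusted p = 0.00111). E18 exceeded E12 by 3.99 (SE 0.47, adjusted p = 4.25e-04), and the adult was 3.05 below E18 (8.26-fold, SE 0.47, adjusted p = 8.91e-04). Scaled to the global mean, these differences were 2.62 and -2.10, and both passed. They passed in all 24 alternative settings as well, with a highest adjusted p of 0.00788.

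miR-503, whose gene lies beside that of miR-322, also peaked at E18 but fell further. The ΔCT of its samples was 10.0 and 10.2 at E12, 10.2 and 11.2 at E14, with 9.07 and 8.23 at E16, then 7.07 and 8.11 at E18, 11.2 and 10.3 at P2, 11.1 and 11.1 at P10, with 11.1 and 11.2 in the adult. All 6 postnatal samples lay below both E12 samples in level, and the E16 and E18 samples lay above all others. The range of means was 3.57 cycles, or 11.9-fold, from the adult to E18 (adjusted p = 0.00154). The adult was 3.57 below E18 (SE 0.51, adjusted p = 5.70e-04), and 29.1% of all assays were lower in that comparison. Between adult and E12 the difference was -1.08 (SE 0.51, adjusted p = 0.108) against U6 and -1.51 (SE 0.38, adjusted p = 0.00926) against the global mean. Only the second passed.

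miR-16 had the lowest ΔCT of the 7 in every sample and ranked between 2nd and 10th among all assays of a sample. Levels of different assays also depend on the efficiency of each assay, so that order is one of ΔCT. Its values were 6.01 and 5.16 at E12, 5.23 and 5.13 at E14, with 4.06 and 4.22 at E16, then 3.07 and 3.09 at E18, 4.17 and 3.26 at P2, 3.06 and 4.07 at P10, with 3.12 and 3.14 in the adult. No sample from E16 on overlapped with those of E12 and E14. The means ranged over 2.51 cycles, or 5.69-fold, with an adjusted p of 0.00557. Adult exceeded E12 by 2.46 (SE 0.45, adjusted p = 0.00162) and by 2.03 (SE 0.38, adjusted p = 0.00169) against the global mean. The mean was highest at E18 against U6 and in the adult against the global mean, and adult and E18 were not told apart under either scaling (-0.05, adjusted p = 0.971, and 0.90, adjusted p = 0.0979).

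miR-15a and miR-15b, each a neighbour of 1 miR-16 gene, moved less. miR-15a had ΔCT values of 12.0 and 11.2 at E12, 11.3 and 11.2 at E14, with 10.1 and 10.2 at E16, then 9.09 and 10.1 at E18, 11.2 and 10.3 at P2, 10.1 and 10.0 at P10, with 10.1 and 11.2 in the adult. Those of miR-15b were 10.0 and 9.16 at E12, 9.23 and 10.2 at E14, with 9.09 and 8.23 at E16, then 8.09 and 8.10 at E18, 9.17 and 9.27 at P2, 9.07 and 9.06 at P10, with 9.13 and 10.2 in the adult. Postnatal samples of miR-15a lay within the span of the embryonic ones, as did those of miR-15b but for adult replicate 2, which matched the lowest embryonic level to within the last digit shown. The ranges of means, 2.01 cycles for miR-15a (adjusted p = 0.0646) and 1.60 for miR-15b (adjusted p = 0.114), did not pass the F test over all 350 assays. miR-15a passed without adult replicate 1 (adjusted p = 0.0478) and with blanks as missing (0.0348), and with only the 219 fully measured assays tested both passed (0.00692 and 0.0290). With the global mean the ranges were 0.96 and 0.84 cycles, with adjusted p of 0.246 and 0.650.

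**Figure D2:**
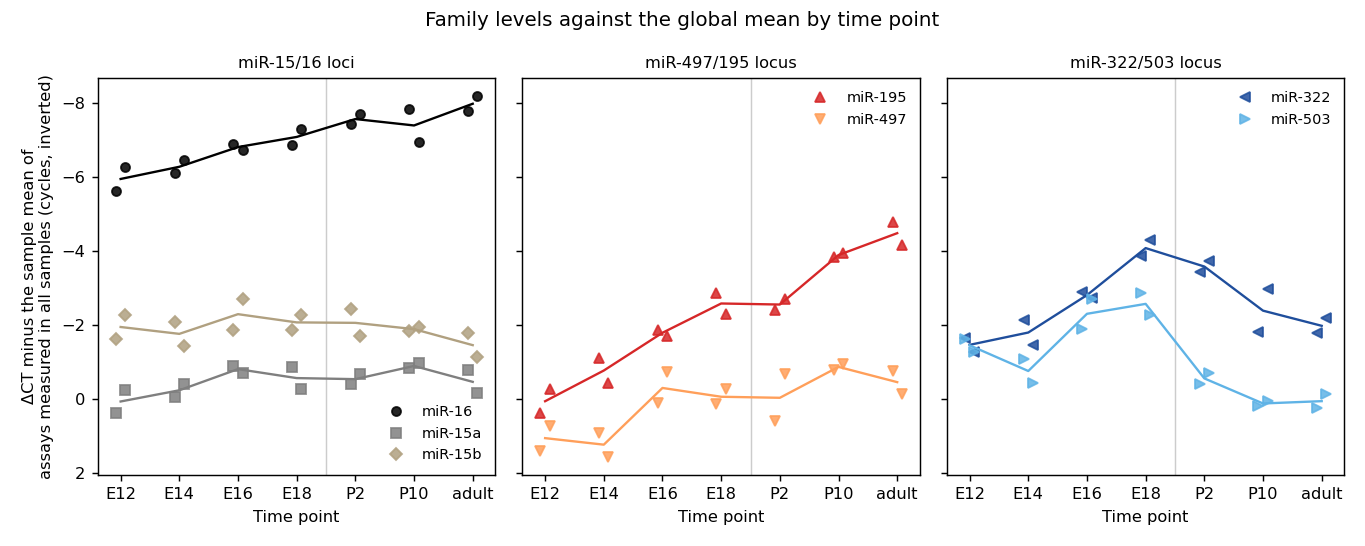
ΔCT minus the mean of the 219 assays with a value in every sample, in cycles on an inverted axis, for the 7 family assays by time point, each point being 1 sample, the lines joining the means of 2 samples and the grey line marking birth. miR-16 and miR-195 were highest in the adult on this scale, with means of -7.97 and -4.48, and miR-322 and miR-503 stayed highest at E18, with means of -4.07 and -2.57.

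Across birth, the members were compared as the mean of P2, P10 and adult against the mean of the 4 embryonic time points. Higher after birth were 2 of 7, miR-16 and miR-195, where 20% of all assays were higher, and lower was 1 of 7, miR-503, where 35.7% were lower. miR-195 was higher by 2.28 (4.87-fold, SE 0.30, adjusted p = 2.02e-04) and miR-16 by 1.03 (2.04-fold, SE 0.24, adjusted p = 0.00627). miR-503 was lower by 1.73 (3.32-fold, SE 0.27, adjusted p = 5.49e-04). All 3 passed in each of the 24 alternative settings. The differences of miR-322 (0.02, SE 0.25, adjusted p = 0.945), miR-15a (0.16, SE 0.28, adjusted p = 0.637) and miR-15b (-0.31, SE 0.27, adjusted p = 0.359) did not pass. The ranges of embryonic and postnatal values overlapped for all 7. The family median was 0.16, against -0.39 for all assays. Against the global mean, miR-497 joined miR-16 and miR-195, so that 3 of 7 were higher where 24.9% of all assays were, and miR-503 was again the 1 of 7 that was lower, where 36.9% were.

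Between E12 and E18, 7 of 7 members were higher against U6, where 30% of all assays were. miR-503 rose by 2.49 (SE 0.51, adjusted p = 0.00588), miR-16 by 2.51 (SE 0.45, adjusted p = 0.00310) and miR-497 by 2.49 (SE 0.67, adjusted p = 0.0213). miR-15a rose by 2.01 (SE 0.51, adjusted p = 0.0172) and miR-15b by 1.50 (SE 0.50, adjusted p = 0.0491). The median of the 7 was 2.49, against 0.99 for all assays. The count depended on the scaling and on single samples, and miR-15b, nearest to the threshold, was called in 10 of 24 alternatives. It was lost also with no filter (0.0603), a floor per sample (0.0532), an ordinary t test (0.0627) and the card A day as a block (0.0567). Against the global mean 2 of 7 passed, miR-195 and miR-322, where 11.4% of all assays were higher, and the medians were 1.12 for the family and -0.38 for all assays. Without E12 replicate 1, miR-15a, miR-15b and miR-497 did not pass against U6, with rises of 1.58, 1.07 and 2.05. These members did not pass without E18 replicate 1 either, with rises of 1.50, 1.49 and 2.48. Without E18 replicate 2, miR-15b (0.120) and miR-497 (0.0665) did not pass, and miR-15b alone also missed without any 1 of the P2 or P10 samples (0.0591 to 0.0691).

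From E18 to the adult, 3 of 7 were lower (miR-322, miR-503 and miR-15b), where 29.1% of all assays were lower, and 0 of 7 higher, where 5.43% were higher. The fall of miR-15b by 1.56 (SE 0.50, adjusted p = 0.0391) did not pass with an ordinary t test (0.0505) or against the global mean (0.317). Nor did it pass without adult replicate 2, either E18 sample or either P10 sample. Against the global mean, 2 of 7 were lower, where 20.6% of all assays were, and 1 of 7, miR-195, was higher by 1.90 (SE 0.37, adjusted p = 0.00373), where 15.7% were. From E12 to the adult, 3 of 7 were higher (miR-195, miR-16 and miR-497), where 24.6% of all assays were higher, and 0 of 7 lower, where 23.4% were lower. With the global mean the same 3 were higher, where 21.7% were, and miR-503 was lower, where 31.7% were. Both comparisons share their adult samples, and those with E12 share the E12 samples.

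**Figure D3:**
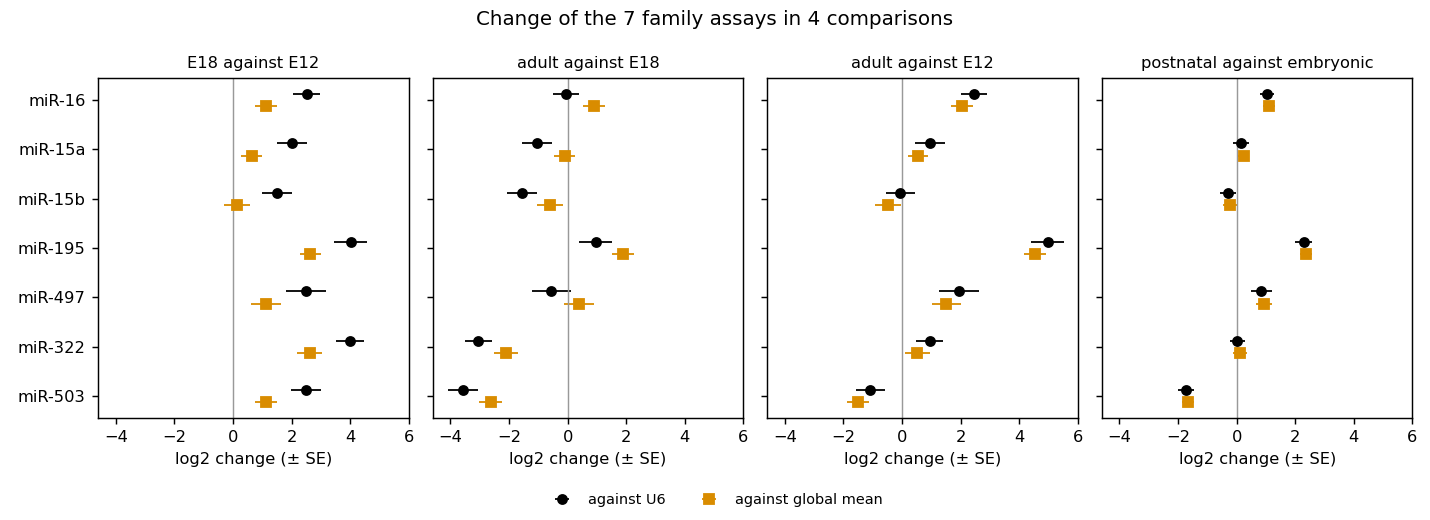
Log2 change of each family assay, with bars of 1 standard error from limma, in 4 comparisons, against U6 (black circles) and against the global mean (orange squares). Between E12 and E18 the U6 values run from 1.50 to 4.01 and the global-mean values from 0.12 to 2.64, while the values for postnatal against embryonic samples nearly coincide.

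Among single steps, few differences of the members passed. From E16 to E18, 1 of 7 rose, miR-322 by 2.06 (SE 0.47, adjusted p = 0.0353), where 4.86% of all assays were higher. It did not pass without E16 replicate 1 (0.120), E16 replicate 2 (0.121), E18 replicate 1 (0.155), E18 replicate 2 (0.10) or either adult sample (0.0577), or against the global mean (1.27, adjusted p = 0.146). From E18 to P2, 2 of 7 fell, where 23.1% of all assays were lower. miR-503 fell by 3.13 (8.77-fold, SE 0.51, adjusted p = 0.00635) and by 2.01 (SE 0.38, adjusted p = 0.0287) against the global mean, where it was 1 of 7 and 2% of all assays were lower. Its call held without each single sample. miR-322 fell by 1.62 (SE 0.47, adjusted p = 0.0393), which did not pass without P2 replicate 1 (0.204), E18 replicate 1 (0.157), E18 replicate 2 (0.0836) or either E16 sample (0.0558), or against the global mean (-0.50, adjusted p = 0.544). Without P2 replicate 2, miR-497 fell as well, by 2.10 (adjusted p = 0.0479).

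At the other 4 steps 0 of 7 passed by limma's moderated test or by an ordinary t test. From E14 to E16 all 7 were higher in mean, by 1.04 to 2.05 with a family median of 1.52 against 0.52 for all assays, and 5 of 7 (all but miR-15a and miR-15b) had an unadjusted p under 0.05, as had 15.4% of all assays. At this step 0.857% of all assays were called higher and 0% lower. From P2 to P10, miR-195 differed by 1.67 (SE 0.56, adjusted p = 0.0973) and was the 1 member with an unadjusted p under 0.05, as had 27.1% of all assays. At the first step, from E12 to E14, and the last, from P10 to the adult, 0 of 7 reached an unadjusted p under 0.05, where 13.4% and 23.4% of all assays did. The shares of all assays called at the 3 steps just named were 0.857% higher and 0.857% lower, 3.71% higher and 6.29% lower, and 3.71% higher and 2.86% lower, in the order E12 to E14, P2 to P10 and P10 to adult.

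Differences between members within a sample do not depend on U6 or on any scaling of the sample, and are given as a description. miR-322 and miR-503 were at the same ΔCT at E12, with differences (miR-322 minus miR-503) of -0.02 and 0.00. At E14 the gap was -1.04 in both samples, followed by -1.0 and -0.01 at E16 and by -0.99 and -2.02 at E18. After birth it was -3.02 in both P2 samples, -1.99 and -3.03 in those of P10 and -2.05 and -2.02 in those of the adult. So these neighbours on the X chromosome parted in level, miR-503 ending lower, and the widest mean gap stood at P2, with P10 replicate 2 at the same whole-cycle step. Averaged over time points, the gap was -0.77 cycles before birth and -2.52 after it. Between miR-195 and miR-497, neighbours on chromosome 11, the mean gap was -1.0 cycle at E12 and -4.03 at adult, with -2.52 at both E18 and P2.

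miR-16 and its neighbours also parted. miR-15b stood a mean of 4.0 cycles above miR-16 in ΔCT at E12, 5.01 at E18 and 6.52 in the adult, and miR-15a stood 6.01, 6.52 and 7.52 cycles above it. miR-195 and miR-16, the closest in sequence, came nearer to each other, from 6.01 cycles apart at E12 to 3.50 in the adult. Between the pairs on different chromosomes the order turned: miR-195 lay above miR-322 in ΔCT by 0.99 to 2.03 cycles in every sample up to P2 and below it in all 4 P10 and adult samples, by 2.50 cycles on average in the adult. miR-497 lay above miR-503 by 2.51 cycles at E12 and below it by 0.51 in the adult.

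**Figure D4:**
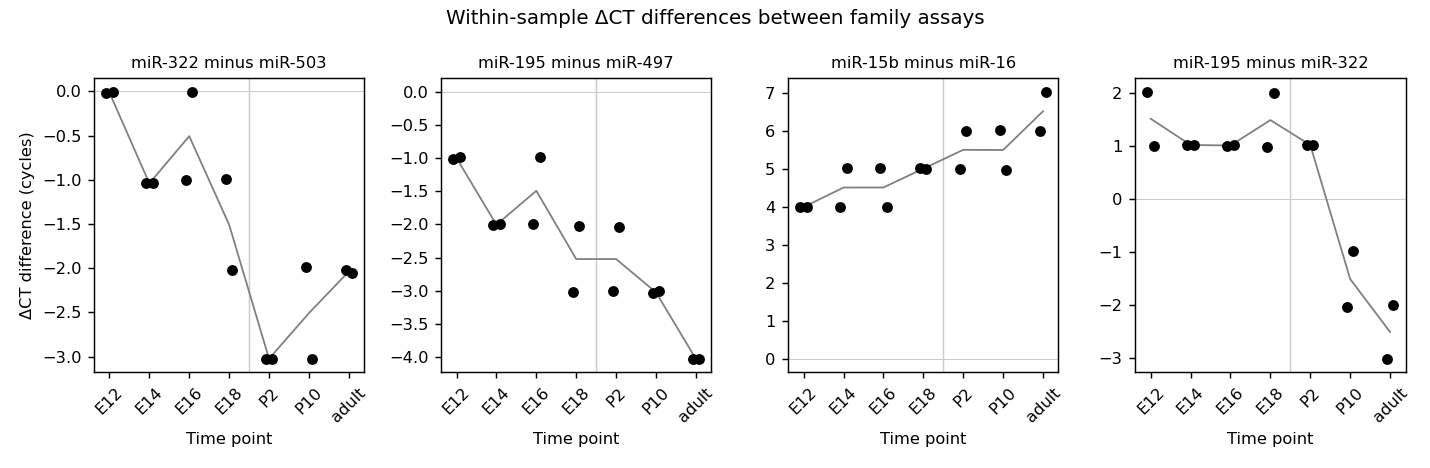
Difference in ΔCT, in cycles, between members in the same sample, for 4 pairs by time point, each point being 1 sample, the lines joining the means of 2 samples and the grey vertical line marking birth. The values of miR-322 minus miR-503 fall from near 0 at E12 to -3.02 at P2, and those of miR-195 minus miR-322 change sign between P2 and P10.

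The likeness of the courses was described by Pearson's r over the 7 time-point means, which share samples, cards and U6. miR-16 and miR-195 were the most alike of the 21 pairs, with r of 0.96 against U6 and 0.95 against the global mean. miR-195 and miR-497 had r of 0.90 and 0.88. miR-322 and miR-503 had r of 0.68 and 0.44, and miR-195 and miR-503 had r of -0.03 and -0.49. miR-15b resembled miR-16 little, with r of 0.52 against U6 and -0.31 against the global mean, and miR-15a more, with 0.82 and 0.62. Outside the family, among 212 assays measured in all samples, the course nearest to miR-16 was that of assay 464 (r of 0.99 under both scalings), and the nearest to miR-503 was that of assay 1067 (0.99 and 0.97). Neither number is paired with a name in the files.

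The card A run files were last saved on 7 different days that followed the time course, so that age and day are largely tied. Where files of 2 time points were saved on the same day, the change was read within that day. For both E12 samples and 1 of E14, miR-195 was higher at E14 by 1.38 and miR-322 by 0.87. The other members differed by -0.15 to 0.36, where the 219 assays rose by 0.21 on average. Within the day that held both E16 samples and 1 of E18, miR-322 was higher at E18 by 2.06 and miR-195 by 2.09, where the 219 assays rose by 1.00 on average. In the pair of E18 and P2 samples saved on 1 day, miR-503 fell by 3.07, miR-497 by 2.09 and miR-322 by 2.07. miR-15a, miR-15b, miR-16 and miR-195 fell by 1.08 to 1.10, where the 219 assays fell by 1.22. Between P2 and P10 within 1 day, miR-195 was higher by 1.19 and miR-322 fell by 1.86, where the 219 assays differed by 0.07. Between P10 and adult within 1 day, miR-195 and miR-16 were each higher by 0.95 and miR-322 fell by 1.09. These are single samples or pairs, with no test. Where 1 sample is set against 1, each member's change is nearly a whole number of cycles plus a shift shared by all members. Near-equal values there mean the same whole-cycle step and no finer likeness. With the saved day as a random block, the changes over time of miR-16, miR-195, miR-322 and miR-503 passed and that of miR-497 did not (adjusted p = 0.0508). No E12 or E14 file shared a day with a later time point. For E12 against E18, E12 against adult and E14 against E16, age and day therefore cannot be told apart. E18 and adult were not saved on the same day either. They are linked only through the days shared by single samples of E18 and P2, P2 and P10, and P10 and adult.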

How the data were processed

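Total RNA from the mirVana kit was converted to cDNA with the Megaplex primers and measured by real-time PCR on TaqMan cards A and B. The authors deposited ΔCT values against U6 and treated them as log2 values. Per the methods, undetermined reactions were set to an upper CT limit, but 2888 of the 7224 deposited cells are blank. The deposited run files hold other information (plate layout, file-saved day) and no CT.

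The sign of ΔCT was turned to give expression. Blank cells received the highest deposited ΔCT (19.9), which changed no ΔCT of a family assay. The filled rows of other assays did enter limma's shared estimate of the spread, on which the family's p-values rest. In E14 replicate 2, 5 values below 0.001, none of the family, were set to missing. An assay was kept if any time point had values in 2 of its 2 samples, which left 350. limma 3.58.1 in R 4.3.3 was fitted to all 14 samples with 1 mean per time point, as an F test over the 6 steps and 10 two-sided contrasts. Benjamini-Hochberg adjustment ran over the 350 assays within a comparison, and an adjusted p under 0.05 was called. A fold is 2 raised to the log2 difference. Precision is limited by 2 samples per time point. The fit was also run on simulated data with normal noise and steady trends. Those data had no whole-cycle steps, blanks or saved days, so the run does not speak to these features. All 7 members are named whatever their values. Members, lists and tests were chosen with earlier results of these data known. Passenger strands and other miRNAs tied to the cell cycle could not be named and were not analysed here. Alternatives covered scaling, filter, floor, blanks as missing, test, variance trend, replicate block, card A day and leaving out each sample. Global mean together with blanks as missing was added after seeing the data.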

Additional observations from a re-analysis of the deposited data

How the results depend on the processing

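The calls of miR-195, miR-322, miR-503 and miR-16 over the 7 time points, and those of miR-195, miR-16 and miR-503 across birth, held in all 24 alternatives. Scaling changed the most. Between E12 and E18, 7 of 7 members passed against U6, where 112 of the 350 assays did, and 2 against the global mean, where 95 did. With the global mean and blanks as missing (an alternative chosen after seeing the data), miR-15a, miR-15b and miR-497 did not pass. Leaving out single samples also changed which members passed. From E16 to E18, 1 passed against U6, 0 against the global mean with or without blanks as missing, 2 when only the fully measured assays were used, and 0 to 1 with 1 sample left out. From E18 to P2, 2 passed against U6, 1 against the global mean with or without blanks as missing, and 1 to 3 with 1 sample left out. Using only the fully measured assays, 2 passed from E14 to E16 and 1 from P2 to P10. In that setting both limma's shared estimate of the spread and the adjustment use fewer assays. With the global mean and blanks as missing, 1 passed from P2 to P10.

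The global mean, with or without blanks as missing, turned the change from E18 to adult of miR-16 (to 0.90) and of miR-497 (to 0.39), neither of which passed under either scaling. It moved r of miR-322 and miR-503 to 0.44 and turned that of miR-15b and miR-16 to -0.31. The difference of miR-15b between adult and E12, which did not pass, turned to 0.044 with the card A day as a block and ranged from -0.59 to 0.46 with 1 sample left out. Across birth, leaving out 1 sample gave -0.15 to 0.20 for miR-322 and -0.015 to 0.33 for miR-15a. Causes were not tested.

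The replicate number did not pair the samples: deviations of same-numbered samples correlated from -0.23 to 0.11 over 21 pairs of time points, and 3 were over 0.1. With the replicate block, 0 members passed from E16 to E18 and 1 from E18 to P2, and calls were lost for miR-497 between adult and E12 (adjusted p = 0.0530) and for miR-15b between E18 and E12 (0.0720) and between adult and E18 (0.0588). Over all assays the number called against U6 with the main settings was 6 from E12 to E14, 3 from E14 to E16, 20 from E16 to E18, 81 from E18 to P2, 35 between P2 and P10 and 23 at the last step. Against the global mean it was 10, 8, 13 and 8 at the first 4 steps, and with blanks as missing too it was 3 at the first, 12 at the E16 to E18 step, 12 from E18 to P2 and 37 at the last. When only fully measured assays were used it was 3, 10 and 52 at the first 3 steps, 66 from P2 to P10 and 41 at the last. Blanks as missing gave 1 at the first step and 33 from E16 to E18. The ordinary test gave 1 and 34, and the card A day block 1 and 34, at the E14 to E16 and E16 to E18 steps, and a variance trend gave 31 at the latter. Depth is not known for ΔCT values, and whole-cycle steps limit what 2 samples per time point can separate.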
